A study of Mus musculus with 12 samples.

Results

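The nuclear genes for subunits of the mitochondrial respiratory chain and of ATP synthase were described in mouse prostate tumours grown in hosts with and without p62. Members were the genes whose symbols begin with Ndufa, Ndufb, Ndufc, Ndufs or Ndufv and a digit, with Uqcr, with Cox followed by a digit from 4 to 8, or with Atp5, together with Sdha, Sdhb, Sdhc and Sdhd. A probe set had to carry exactly 1 gene symbol, and of several probe sets for a gene the brightest on average in the 12 tumours was taken. This gave 81 of the 19937 genes named on the array, chosen from 104 probe sets. They comprised 33 genes of complex I, 4 of complex II, 8 of complex III, 19 of complex IV and 17 of complex V. Probe sets that carry several symbols, among them those of Cox7c and Ndufb4, were not analysed here.

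All tumours came from a prostate carcinoma line of the mouse, TRAMP-C2Re3, of which 50000 cells had been placed in the prostate of C57BL6 mice and left for 60 days. The hosts of 6 tumours were p62 KO and those of the other 6 were wild type (WT), each host being a separate mouse. Sqstm1 is the gene for the autophagy receptor and signalling adaptor p62. The labels give the p62 genotype for the hosts only, and the injected line was the same in both groups. The comparison asks whether host p62 changes the RNA of the whole tumour, and the labels give neither the age of the mice nor a batch, scan date or RNA quality value. In whole tumours fewer cells of a type and less RNA per cell cannot be told apart.

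The respiratory chain passes electrons from NADH (complex I) and succinate (complex II) through ubiquinone, complex III and cytochrome c to complex IV, which reduces oxygen. Complexes I, III and IV pump protons across the inner mitochondrial membrane, and ATP synthase (complex V) uses the return flow to make ATP. Most subunits are encoded in the nucleus and a few in mitochondrial DNA. Several complex IV subunits and the c subunit of complex V exist as paralogues, some of them restricted to muscle, testis or lung or induced in hypoxia.

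Each tumour was measured on 1 single-colour array, and values are log2 intensities, on which a difference of 1 is a 2-fold change. The array spread, as the interquartile range over the tested probe sets, was narrowest in KO hosts 3 and 2 (2.15 and 2.26) and in WT hosts 5 and 2 (2.47 and 2.59), against 2.70 to 2.95 in the other tumours. Sqstm1 ranged from 8.17 to 9.22 in tumours of KO hosts and from 8.55 to 9.16 in tumours of WT hosts, so the groups overlapped and its level in whole tumours did not check the host genotype. Among epithelial markers Krt8 averaged 8.12 ± 0.35 in KO and 8.10 ± 0.20 in WT hosts (SD, n = 6 each). Epcam, at 4.61 ± 0.32 and 4.59 ± 0.25, lay below the lower quartile of all arrays (4.85 to 5.36). Detection calls were not used, so no level could be set against background.

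No subunit gene differed between tumours of KO and WT hosts at an adjusted p under 0.05. The lowest adjusted p among the 81 members was 0.9935 (limma, Benjamini-Hochberg over 28192 probe sets). Over all probe sets 1 was called (0.00355%), Nlrp1c-ps, which was lower in KO hosts. At an unadjusted p under 0.05 only Ndufa4l2 passed among the members, where 2.39% of all probe sets did (1.28% higher and 1.11% lower in KO hosts). The host groups overlapped in all 81 members, and 0.145% of all probe sets showed no overlap.

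In direction, 47 members were higher and 34 lower in KO hosts (58.0% higher), beside 57.2% of all probe sets. The median difference, KO minus WT, was 0.02 for the members and 0.02 for all probe sets. Differences ran from -0.17 (Ndufb2, an accessory subunit of complex I) to 0.55 (Ndufa4l2), with a median size of 0.0763 against 0.0894 over all probe sets. The 95% interval included 0 for 80 members, lay within 0.5 of 0 for 71 and within 1 of 0 for 80. For a typical member the interval reached 0.28 to either side of the difference, the median over members. These intervals are unadjusted and give no limit of detection. With p-values adjusted over all probe sets, even the 0.55 of Ndufa4l2 was not called at this number of arrays. The count of 34 lower members fell to 15 without KO host 3 (81.5% higher, against 50.1% of all probe sets). It fell to 22 without WT host 3 (72.8% higher, against 55.9%). It rose to 44 without KO host 2 (45.7% higher, against 52.7%) and without WT host 5 (45.7% higher, against 58.3%). Without both KO hosts 2 and 3 the split was 58 higher and 23 lower (71.6% higher), against 45.5% of all probe sets. Quantile normalization also gave 58 higher (71.6%), against 52.3% of all probe sets. Common-median scaling turned the split to 38 higher and 43 lower (46.9% higher), near the 46.4% of all probe sets under that scaling.

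**Figure D1:**
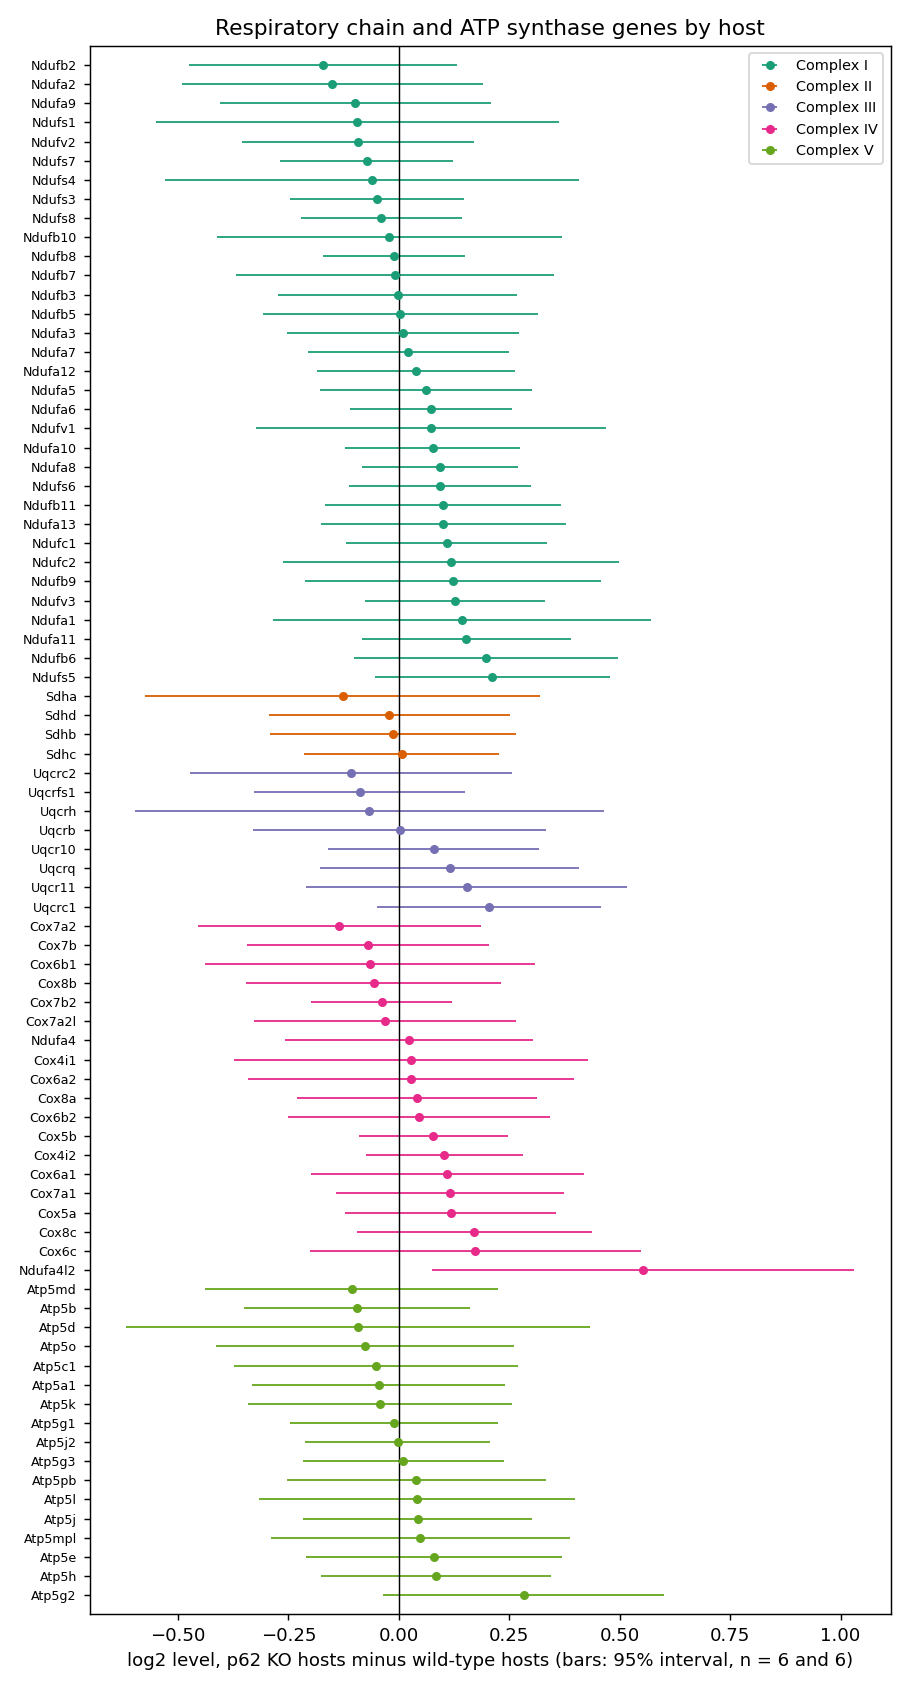
Difference of each of the 81 genes between tumours of KO and WT hosts (log2, x axis) with its 95% interval, 1 row per gene, grouped by complex. All intervals cross 0 except that of Ndufa4l2 at 0.55, and most points lie within 0.2 of the zero line.

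Core and other subunits were counted separately, as a description with no test. Core here means subunits listed as catalytic or defining for their complex, among them Cox4i1, Cox5a and Cox5b, and not catalytic subunits alone. Of 19 core subunits measured 13 were lower and 6 higher, with a median of -0.05. Of the other 62 subunits 21 were lower and 41 higher, with a median of 0.04. The core genes had been set aside for naming and not for this comparison, and none of them passed the unadjusted threshold. Without KO hosts 2 and 3 the core subunits turned to 15 higher and 4 lower (median 0.05), and the other subunits had 43 higher and 19 lower (median 0.05).

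Promoters were searched because the transcription factors NRF1, GABPA and YY1 are known regulators of genes for respiratory subunits. RefSeq promoters (GRCm38.p6, from 250 bases before to 50 after the start) matched 66 of the 81 members and 27025 genes in all, and both strands were read. The core CGCATGC of the NRF1 motif lay in 11 of the 66 members (16.7%) and in 4.01% of all promoters. The GABPA motif CCGGAAG lay in 17 members (25.8%) against 9.93%, and the YY1 core AAGATGG in 10 (15.2%) against 7.28%. The hypoxia response core ACGTG lay in 17 members (25.8%) against 21.8%. A promoter can hold several of these motifs, as that of Atp5l does for NRF1, GABPA and hypoxia. The median difference, KO minus WT, was 0.09 for the 11 members with the NRF1 core and -0.0022 for the 55 without it. It was -0.0090 with and 0.02 without the GABPA motif, 0.0034 and 0.02 for the YY1 core, and 0.04 and -0.0022 for the hypoxia core.

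The NRF1 core is shown in 6 of the 11 members that hold it, so that its surroundings can be read beside their values. Levels of these 6 are described below, and some were named for a small p, so they do not stand for all 11. Capitals mark the core on either strand, and each sequence is read 5' to 3' on the strand of the gene. On the plus strand lie Sdhb at chr4:140961177-140961263, Uqcrc1 at chr9:108936656-108936685 and Ndufa11 at chr17:56717663-56717749. On the minus strand lie Cox6a1 at chr5:115349073-115349159, Uqcr11 at chr10:80406820-80406849 and Atp5g2 at chr15:102671042-102671128. In Uqcrc1 the core lies after the start of transcription.
Sdhb: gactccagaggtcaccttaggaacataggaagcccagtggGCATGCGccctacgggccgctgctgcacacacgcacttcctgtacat
Cox6a1: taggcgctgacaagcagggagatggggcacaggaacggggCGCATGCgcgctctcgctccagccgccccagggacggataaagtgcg
Uqcrc1: cttgcgcctcagactccgctctgCGCATGC
Uqcr11: aaaaggtggagcgatcgccttcaCGCATGC
Atp5g2: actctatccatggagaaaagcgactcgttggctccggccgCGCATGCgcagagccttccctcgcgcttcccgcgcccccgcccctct
Ndufa11: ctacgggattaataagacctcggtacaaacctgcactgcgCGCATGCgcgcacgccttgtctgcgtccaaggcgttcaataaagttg

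The differences of these genes between KO and WT hosts were -0.01 for Sdhb, 0.11 for Cox6a1, 0.20 for Uqcrc1, 0.15 for Uqcr11, 0.28 for Atp5g2 and 0.15 for Ndufa11. The other members with the core, not shown, differed by 0.09 (Ndufa8), 0.07 (Ndufa6), 0.04 (Atp5j), 0.04 (Atp5l) and -0.04 (Atp5k). None of the members with the core passed an unadjusted p of 0.05. The values of Atp5g2, Uqcr11 and Atp5l come from probe sets outside the place of their genes. At the genes' own probe sets they were 0.08, 0.11 and 0.08. Nrf1 itself, the factor's gene, differed by 0.0038 (SE 0.09). A match of letters is a description of the promoter and no measured binding site.

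Complex I, the NADH dehydrogenase, had 20 of 33 members higher and 13 lower in KO hosts, with a median difference of 0.04. None passed an unadjusted p of 0.05. Its smallest p belonged to Ndufs5, an accessory subunit. Ndufs5 lay between 8.69 and 9.20 with a median of 8.99 in KO hosts and between 8.45 and 9.14 with a median of 8.68 in WT hosts. The groups overlapped, with the highest level in KO host 2 and the lowest in WT host 5. The difference was 0.21 (SE 0.12, 95% interval -0.05 to 0.48).

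Ndufb6, a subunit of the membrane arm, lay between 7.88 and 8.74 (median 7.95) in KO hosts and between 7.75 and 8.08 (median 7.85) in WT hosts. Its highest value, in KO host 2, stood apart from the next KO tumour at 8.06, and the difference between groups was 0.20 (SE 0.14). Ndufa11, another membrane-arm subunit, lay between 8.08 and 8.71 (median 8.22) in KO hosts and between 8.07 and 8.20 (median 8.18) in WT hosts. KO hosts 2 and 3 held its 2 highest levels, and the difference was 0.15 (SE 0.11).

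Most of the core subunits of complex I measured here carry flavin or iron-sulfur centres. The NADH-binding flavoprotein Ndufv1 averaged 7.55 ± 0.37 in KO and 7.48 ± 0.33 in WT hosts (SD, n = 6 each), with a difference of 0.07. Ndufs1, the largest iron-sulfur subunit, ranged from 7.80 to 9.05 in KO hosts and from 8.33 to 8.92 in WT hosts. Both KO hosts 3 (7.80) and 2 (8.15) lay below every WT tumour while the other KO tumours did not, and the difference was -0.09 (SE 0.21). Ndufv2, Ndufs7 and Ndufs8, which carry further iron-sulfur centres, differed by -0.09, -0.07 and -0.04. Ndufs3, a core subunit without such a centre, differed by -0.05. Ndufb8, an accessory subunit often used as a protein marker of complex I, varied least of all members. It ranged from 8.19 to 8.37 in KO hosts and from 8.19 to 8.44 in WT hosts, with an SD over the 12 tumours of 0.075.

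Complex II, succinate dehydrogenase, is encoded wholly in the nucleus, and 1 of its 4 members was higher and 3 were lower in KO hosts, with a median of -0.02. Without KO hosts 2 and 3 all 4 were higher (median 0.08). The catalytic flavoprotein Sdha ranged from 8.94 to 10.20 (median 9.88) in KO hosts and from 9.39 to 10.14 (median 9.82) in WT hosts. KO hosts 3 and 2, at 8.94 and 9.14, were lowest, and the other KO tumours lay within or just above the WT range. The difference of -0.13 (SE 0.21) became 0.19 without those 2 tumours. The iron-sulfur subunit Sdhb and the membrane anchors Sdhc and Sdhd differed by -0.01, 0.0062 and -0.02.

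Complex III, the cytochrome bc1 complex, had 5 of 8 members higher and 3 lower, with a median of 0.04. Uqcrc1, a core protein on the matrix side, lay between 7.10 and 7.62 (median 7.49) in KO hosts and between 7.01 and 7.55 (median 7.21) in WT hosts. KO host 3 was the lowest KO tumour at 7.10 and the next lay at 7.43, so the other 5 stood in the upper part of the WT range or above it. The difference was 0.20 (SE 0.12, 95% interval -0.05 to 0.46), and 0.29 without KO hosts 2 and 3, which passed the unadjusted threshold (adjusted p = 0.638, limma). The second core protein, Uqcrc2, differed by -0.11 (SE 0.17) and the Rieske iron-sulfur protein Uqcrfs1 by -0.09 (SE 0.11).

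Among the small subunits of complex III, Uqcr11 differed by 0.15 (SE 0.17) and Uqcrq by 0.12 (SE 0.14). Uqcrh, the hinge protein next to cytochrome c1, had the second largest SD over tumours of all members, 0.46. It ranged from 8.95 to 10.57 in KO hosts and from 9.51 to 10.53 in WT hosts. KO host 3 was lowest and the next KO tumour lay at 10.04, and the difference between groups was -0.07 (SE 0.25).

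Complex IV, cytochrome c oxidase, had 13 of 19 members higher and 6 lower, with a median of 0.04. Ndufa4l2 had the largest difference of all members. This paralogue of the complex IV subunit Ndufa4 is known as a target of the hypoxia-inducible factor HIF-1. It lay between 6.26 and 7.68 (median 6.82) in KO hosts and between 6.00 and 6.66 (median 6.39) in WT hosts. KO hosts 5, 2 and 3 stood above every WT tumour, KO hosts 1, 4 and 6 within the WT range. The difference was 0.55 (SE 0.22, 95% interval 0.08 to 1.03, adjusted p = 0.9935), a 1.47-fold higher level. It was 0.40 without KO host 5 and 0.68 without KO host 6, and without KO hosts 2 and 3 it was 0.41. It missed the unadjusted threshold without KO host 2 or 5, without WT host 3 or 4, without KO hosts 2 and 3 (with or without WT hosts 2 and 5 also left out) and with array weights.

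The structural subunits near the catalytic centre of complex IV differed less. Cox4i1 ranged from 9.04 to 9.62 in KO hosts and from 8.85 to 10.19 in WT hosts, the latter value being that of WT host 3, with a difference of 0.03. Cox5a differed by 0.12 (SE 0.11) and Cox5b by 0.08 (SE 0.08). Cox5a was held within 8.37 to 8.46 in WT hosts and spread from 8.20 to 8.95 in KO hosts. Cox7a2l, a supercomplex assembly factor rather than a subunit of the enzyme core, differed by -0.03 and Cox7b by -0.07.

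Several isoforms with restricted use in complex IV were dim on these arrays. Cox7b2, a testis isoform, averaged 3.43 ± 0.07 in KO and 3.47 ± 0.08 in WT hosts and was the only member below the highest lower quartile, 5.36. The muscle isoforms Cox8b and Cox7a1 and the testis isoforms Cox8c and Cox6b2 averaged between 5.43 and 5.78 in each group. Cox8c differed by 0.17 (SE 0.12) and Cox4i2, the lung and hypoxia-responsive form, by 0.10 (SE 0.08). The muscle isoform Cox6a2 differed by 0.03, Cox7a1 by 0.12, Cox8b by -0.06 and Cox6b2 by 0.05. The ubiquitous partners Cox6a1, Cox6b1, Cox7a2 and Cox8a differed by 0.11, -0.07, -0.13 and 0.04.

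Complex V had 8 of 17 members higher and 9 lower, with a median of -0.0027, and 13 higher and 4 lower (median 0.09) without KO hosts 2 and 3. Atp5g2, 1 of 3 genes that encode the same mature c subunit of the rotor ring, had its smallest p. It lay between 10.51 and 11.42 (median 10.90) in KO hosts and between 10.34 and 10.96 (median 10.60) in WT hosts. KO hosts 2 and 1 were above every WT tumour. The difference was 0.28 (SE 0.15, 95% interval -0.03 to 0.60), and it depended on the probe set: 0.08 at the probe set placed with the gene and 0.15 as the mean of its probe sets. Without KO hosts 2 and 3 it was 0.16. The other c subunit genes, Atp5g1 and Atp5g3, differed by -0.01 and 0.01.

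The catalytic head of complex V is built from the alpha and beta subunits, and the gamma subunit is part of the central stalk. Atp5b, the catalytic beta subunit, ranged from 11.45 to 12.01 in KO hosts and from 11.59 to 12.00 in WT hosts, with KO hosts 2 and 3 lowest and a difference of -0.10 (SE 0.12). Atp5a1 (alpha) and Atp5c1 (gamma) both differed by -0.05. Atp5d, the delta subunit of the central stalk, had the third largest SD over tumours, 0.46. KO hosts 2 and 3 lay at 7.98 and 8.07 and all other tumours between 8.36 and 9.43, and the group difference was -0.09 (SE 0.24). Atp5h, a subunit of the peripheral stalk, differed by 0.08 (SE 0.12).

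**Figure D2:**
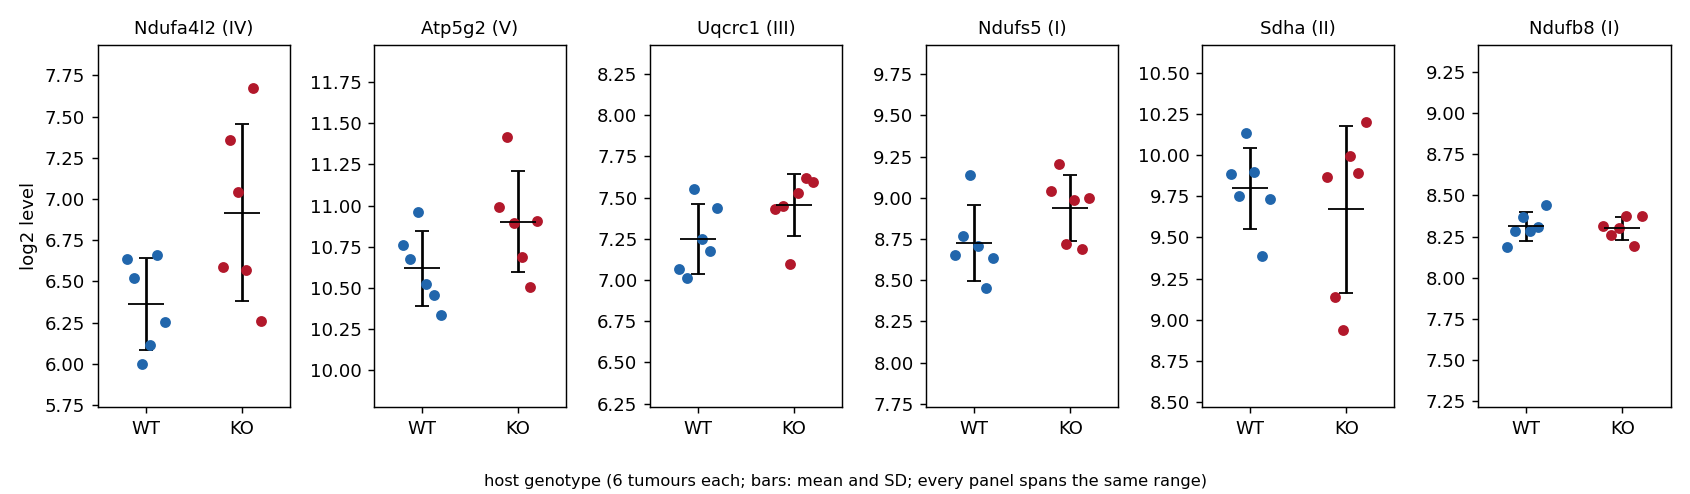
Log2 level of 6 genes in the 6 tumours of WT and the 6 of KO hosts (points), with mean and SD (bars). The groups overlap in every panel, Ndufa4l2 has the widest gap between group means (6.36 and 6.92), and the KO points of Sdha reach down to 8.94.

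Paralogues were also compared within each array, which removes any shift common to the array and asks only whether 2 probe sets changed unequally. The 8 pairs were tested by exact permutation, two-sided, with all 924 ways of assigning tumours to hosts, and none passed after Benjamini-Hochberg adjustment. The log2 ratio of Ndufa4l2 to Ndufa4 was 0.53 higher in KO hosts (exact p = 0.113, adjusted p = 0.450). It lay between -4.13 and -2.52 in KO hosts and between -4.60 and -3.60 in WT hosts. The log2 ratio of Atp5g2 to Atp5g3 was 0.27 higher (exact p = 0.0887, adjusted p = 0.450), ranging from -0.47 to 0.40 in KO hosts and from -0.43 to -0.04 in WT hosts. At the own probe set of Atp5g2 the ratio was 0.07 higher (exact p = 0.697, adjusted p = 0.823).

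The other 6 pairs had an adjusted p of 0.823. Their ratios differed by 0.08 for Cox4i2 to Cox4i1, 0.25 for Cox7a1 to Cox7a2, 0.11 for Cox6b2 to Cox6b1, -0.08 for Cox6a2 to Cox6a1, -0.10 for Cox8b to Cox8a and -0.02 for Atp5g1 to Atp5g3. These ratios compare probe sets of different response, so they give no relative abundance of the isoforms.

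Levels were also described tumour by tumour, with no test. For this, each member was expressed as its deviation from its own mean over the 12 tumours and averaged within a complex. Complex I lay between -0.29 (KO host 3) and 0.15 (KO host 2) among KO tumours and between -0.21 (WT host 5) and 0.17 (WT host 3) among WT tumours. Complex V spanned -0.39 (KO host 3) to 0.19 (KO host 2) and -0.23 (WT host 5) to 0.29 (WT host 3). Complex II, where KO host 2 was low too at -0.14, spanned -0.44 to 0.19 in KO hosts and -0.24 to 0.31 in WT hosts. Complex III spanned -0.38 to 0.12 and -0.16 to 0.16. KO host 3 was the lowest of the 12 tumours in complexes I, II, III and V, and WT host 3 was highest in the same 4.

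**Figure D3:**
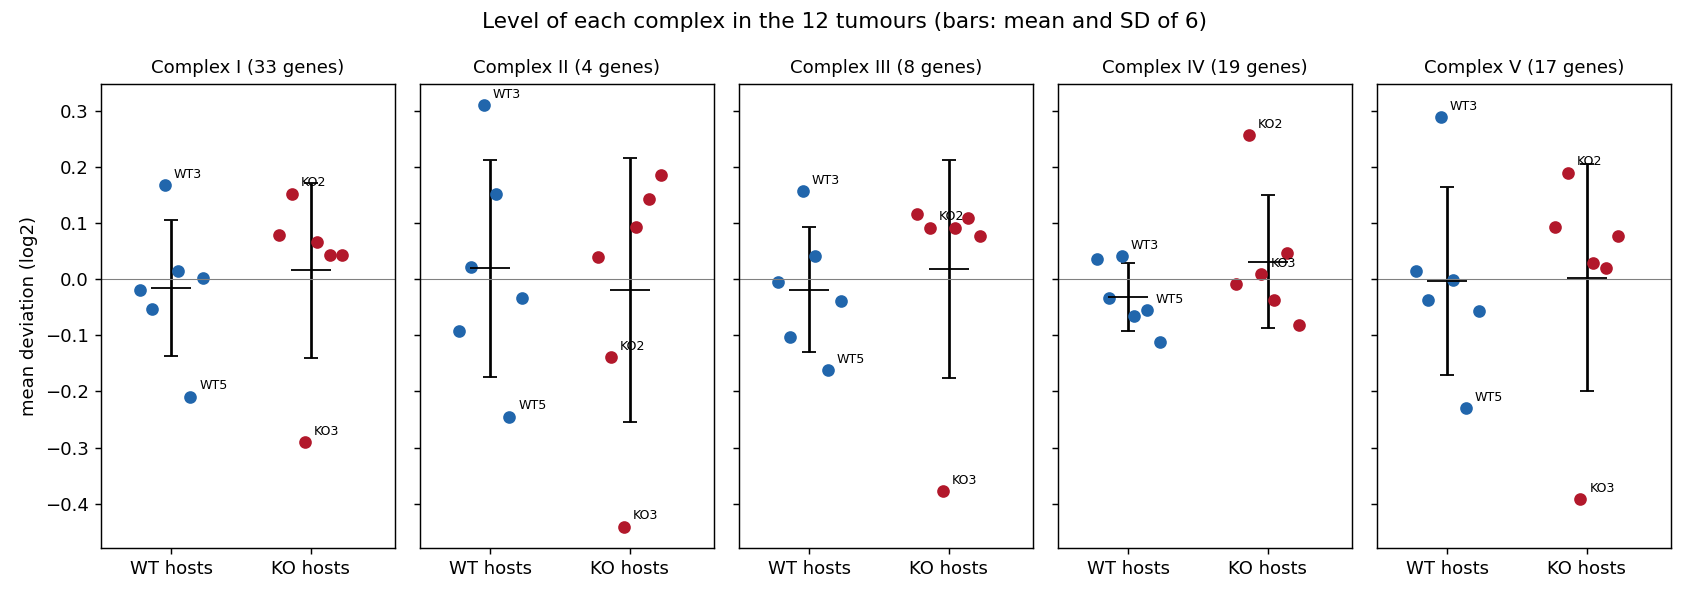
Mean deviation of each complex in each tumour (log2, y axis), 1 panel per complex, with points for tumours and bars for the mean and SD of 6. KO host 3 lies lowest in complexes I, II, III and V, at -0.29, -0.44, -0.38 and -0.39, and KO host 2 lies highest in complex IV at 0.26.

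The low tumours were low in most members. In KO host 3, 64 of 81 members lay below their own mean, and 42 (51.9%) had their lowest level there, against 16.9% of all probe sets. By complex, the members below their mean in KO host 3 were 30 of 33 in complex I, 4 of 4 in complex II, 7 of 8 in complex III, 7 of 19 in complex IV and 16 of 17 in complex V. WT host 5 had 69 of 81 below, including 31 of 33 in complex I and 16 of 17 in complex V. In WT host 3, by contrast, 63 of 81 lay above, including all 17 of complex V, and 23 (28.4%) had their highest level there, against 9.65% of all probe sets.

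KO host 2 shared the narrow array spread of KO host 3 but not the level of its subunit genes. There 61 of 81 members lay above their mean, and 28 (34.6%) had their highest level, against 16.8% of all probe sets. Between these 2 tumours 46 members were above their mean in KO host 2 and below it in KO host 3, 18 were below in both, 15 above in both and 2 the other way round. Among the highest in KO host 2 were the complex I subunits Ndufc2 (0.82) and Ndufb6 (0.76) and the complex IV subunit Cox6c (0.70). The lowest were Atp5d (-0.85), Sdha (-0.59), Ndufs1 (-0.54) and Uqcrc2 (-0.49), which were low in KO host 3 as well (-0.75, -0.80, -0.89 and -0.62). Core subunits averaged -0.07 in KO host 2 and -0.36 in KO host 3, and the other subunits 0.24 and -0.23.

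**Figure D4:**
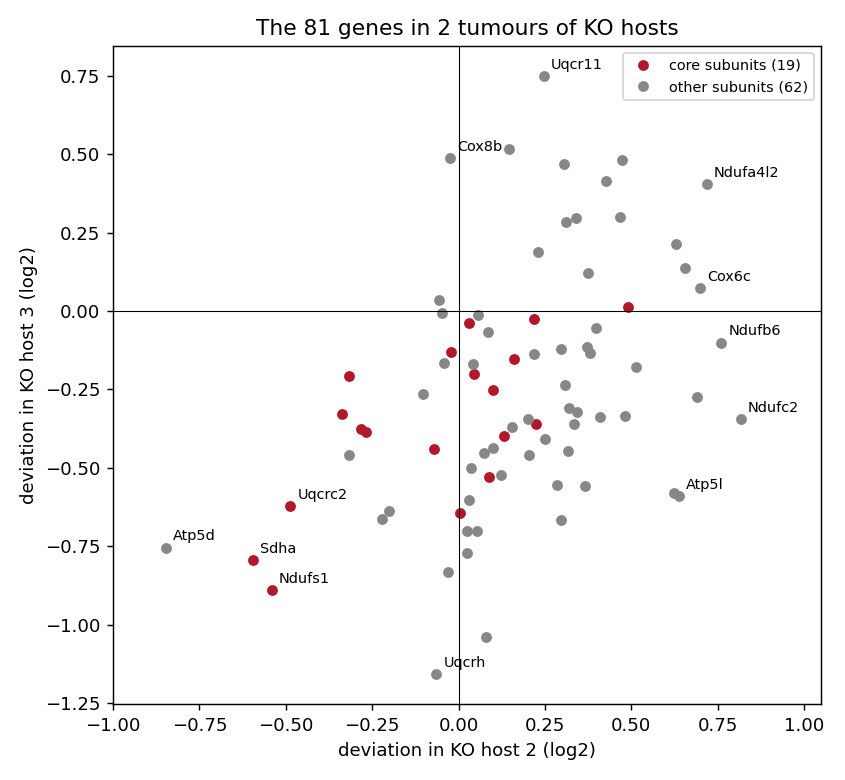
Deviation of the 81 genes from their own 12-tumour mean in KO host 2 (x axis) and KO host 3 (y axis), both log2, with core subunits in red. The lower right field, above the mean in KO host 2 and below it in KO host 3, holds 46 genes, and Atp5d, Sdha, Ndufs1 and Uqcrc2 lie at the lower left.

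Brightness was set beside these deviations. Among all tested probe sets with a mean from 8 to 10, the 4730 probe sets averaged -0.39 in KO host 3 and -0.28 in KO host 2. The 40 members in that range averaged -0.34 in KO host 3 but 0.17 in KO host 2. Above a level of 10, all 1096 probe sets averaged -0.23 and -0.08, and the 13 members -0.39 and 0.14. Between 6 and 8, all 9928 probe sets averaged -0.0016 and -0.0032, and the 23 members -0.17 and 0.16. In KO host 3 the members thus lay near all probe sets at levels 8 to 10 and below them at levels 6 to 8 and above 10, and in KO host 2 they lay above them in all 3 ranges. In WT host 3 the members of levels 8 to 10 averaged 0.22 and all probe sets of those levels 0.14, and in WT host 5 the averages were -0.20 and -0.09.

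Complex IV stood apart in KO host 3, with a mean deviation of 0.01. Its 8 restricted or regulated isoforms (Ndufa4l2, Cox4i2, Cox6a2, Cox6b2, Cox7a1, Cox7b2, Cox8b and Cox8c), split off after the values were seen, averaged 0.35 there, and its 11 other subunits averaged -0.24. In KO host 2 the averages were 0.28 and 0.24, in WT host 3 -0.21 and 0.23, and in WT host 5 0.06 and -0.14. Complex IV as a whole stood apart in these WT tumours too. It lay at 0.04 in WT host 3, against 0.16 to 0.31 in the other complexes. In WT host 5 it lay at -0.06, against -0.24 to -0.16. The 5 of these isoforms with a mean under 6 (Cox6b2, Cox7a1, Cox7b2, Cox8b and Cox8c) averaged 0.35 in KO host 3 and 0.16 in KO host 2, and all 12438 probe sets under 6 averaged 0.34 and 0.23. Ndufa4l2, Cox6a2 and Cox4i2, with means between 6 and 8, deviated by 0.41, 0.48 and 0.19 in KO host 3. With common-median scaling complex IV of KO host 3 was -0.16, with quantile normalization 0.10, and with dim probe sets left out it was -0.13.

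**Figure D5:**
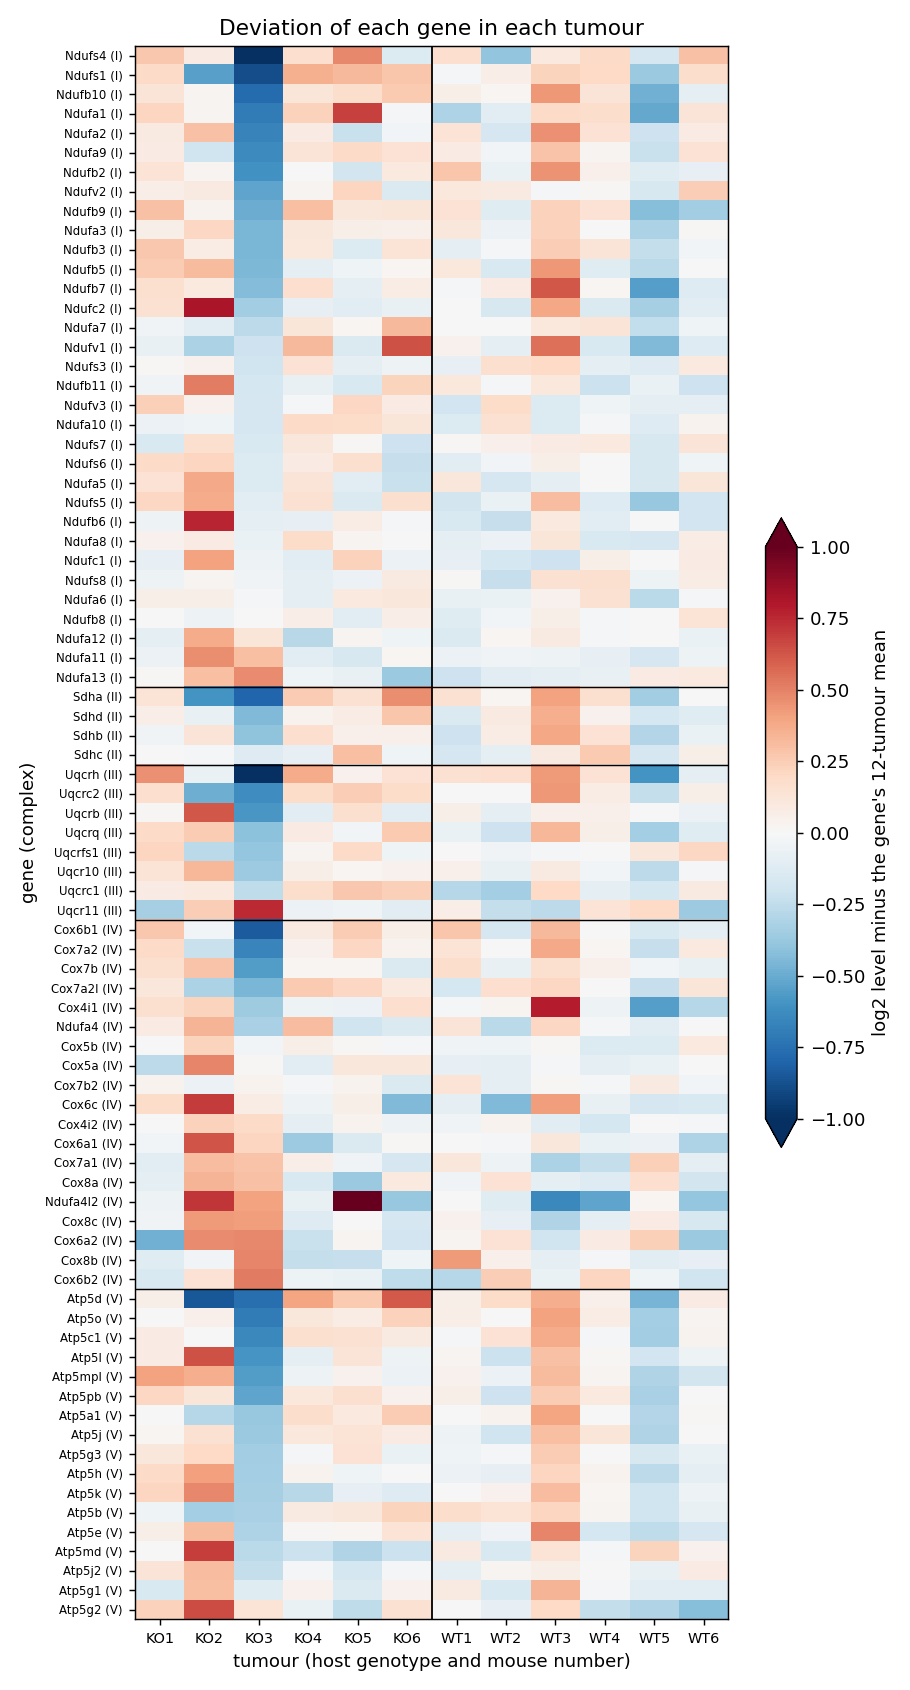
Deviation of each of the 81 genes (rows, grouped by complex and ordered by KO host 3) from its own mean in the 12 tumours (columns). Colours stop at 1 in both directions, and Uqcrh (-1.16) and Ndufs4 (-1.04) in KO host 3 and Ndufa4l2 (1.04) in KO host 5 lie beyond. The KO host 3 column is mostly blue and the KO host 2 and WT host 3 columns mostly red.

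Scaling moved the levels of KO hosts 2 and 3, while KO host 2 stayed above KO host 3 in each complex under both alternatives. Quantile normalization brought complex I of KO host 3 from -0.29 to -0.073, complex III from -0.38 to -0.13 and complex V from -0.39 to -0.11, and raised complex I of KO host 2 from 0.15 to 0.34. A common median lowered complex I of KO host 3 to -0.46 and complex III to -0.54, and lowered complex IV of KO host 2 from 0.26 to 0.13. For KO host 2, complex II turned from -0.14 to 0.067 with quantile normalization, and complex III from 0.09 to -0.03 with a common median. The part of array spread or RNA quality in these tumour levels was not tested.

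Some members rest on probe sets whose neighbours in identifier order do not lie near the gene. Of the 81 probe sets used, 8 were so placed, those of Atp5g2, Atp5l, Atp5md, Atp5pb, Cox7b, Ndufb11, Uqcr11 and Ndufa3. At the own probe set of Uqcr11, its deviation in KO host 3 was 0.08 in place of 0.75. Atp5md, a small subunit of the membrane sector, differed by -0.11 (SE 0.15) with the probe set used and by 0.11 with its own. Of the 16 members with several probe sets, 6 had probe sets whose differences between host groups differed in sign.

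Genes of the same organelle were examined from lists beside the members. For each list, the share over all probe sets was 57.2% higher in KO hosts and 2.39% at an unadjusted p under 0.05. Without KO hosts 2 and 3 these shares were 45.5% and 7.72%. The tricarboxylic acid cycle, which feeds NADH and succinate to the chain, had 2 of 16 measured genes higher and 14 lower in KO hosts, with a median of -0.13 and 0 at an unadjusted p under 0.05. Citrate synthase (Cs) differed by -0.14 (SE 0.17), Sucla2 by -0.15 (SE 0.12) and Pdhx, a component of pyruvate dehydrogenase, by -0.29 (SE 0.22). In KO hosts 2 and 3 the mean deviation of these 16 genes was -0.49 and -0.54, and without these 2 tumours 14 of 16 were higher (median 0.10). In KO host 2 the cycle genes and the respiratory subunits (0.17 over all 81) thus lay on opposite sides of 0. The mean level of the cycle genes per tumour ran from 8.18 to 8.98. All 4730 probe sets with a mean from 8 to 10 averaged -0.28 and -0.39 in KO hosts 2 and 3. The part of brightness in the level of the cycle genes was not tested.

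Proteins of the mitochondrial ribosome had 30 of 77 genes higher and 47 lower, with a median of -0.03, and 1 passed the unadjusted threshold, Mrpl35 at -0.21. Assembly factors of the complexes had 18 of 45 higher and 27 lower, with a median of -0.02. Of these, Coa3, a complex IV assembly factor, was 0.22 higher and Ndufaf4, a complex I assembly factor, differed by -0.43, both at an unadjusted p under 0.05. Without KO hosts 2 and 3, 53 of 77 mitochondrial ribosomal genes (median 0.06) and 33 of 45 assembly factors (median 0.04) were higher. Cytochrome c (Cycs), cytochrome c1 (Cyc1) and the ATP synthase inhibitor Atpif1 differed by -0.09, 0.05 and 0.09. Of the 13 genes of mitochondrial DNA, 0 matched a probe set with a single symbol.

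Regulators of mitochondrial biogenesis had 7 of 17 genes higher and 10 lower, with a median of -0.06 and none at an unadjusted p under 0.05, and 11 of 17 were higher (median 0.05) without KO hosts 2 and 3. The coactivator gene Ppargc1a ranged from 5.56 to 8.46 in KO hosts and from 5.52 to 7.18 in WT hosts, with a difference of 0.30 (SE 0.46). Tfb2m and Tfam, which act in transcription of mitochondrial DNA, differed by -0.37 (SE 0.21) and -0.19 (SE 0.19). Gabpa and Gabpb1, the subunits of the GABP factor, differed by -0.13 and -0.31. No gene of these lists passed the adjusted threshold.

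Mitochondrial genes linked to hypoxia were set beside Ndufa4l2. Of 9 measured, 7 were higher and 2 lower in KO hosts, with a median of 0.26, and 2 passed an unadjusted p under 0.05, Higd1a and Bnip3. Of all probe sets 57.2% were higher, and 1.28% were higher at an unadjusted p under 0.05. Bnip3, a mitophagy receptor, differed by 0.91 (SE 0.35), and Higd1a, a small inner-membrane protein, by 0.71 (SE 0.16). Pdk1, the kinase that restrains pyruvate dehydrogenase, differed by 0.35 (SE 0.25). Host groups did not overlap in Higd1a, as in 0.145% of all probe sets. Higd1a lay at 7.95 and 7.94 in KO hosts 2 and 3 and at most at 7.90 in WT hosts. Ndufa4l2 in these KO tumours, at 7.36 and 7.04, was also above every WT tumour. Fundc1, another mitophagy receptor, was below every WT tumour there, at 8.32 and 7.42. WT host 3 was the lowest of all tumours in Ndufa4l2, Higd1a, Bnip3 and Pdk1. The mean level of the whole list, 8.07 and 8.10 in KO hosts 2 and 3, was lowest in WT host 3 (7.85). The list was highest in KO host 6 (8.90), where Ndufa4l2, at 6.26, was the lowest of the KO tumours and below the WT median of 6.39. Without KO hosts 2 and 3 all 9 genes were higher (median 0.29), against 45.5% of all probe sets.

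Markers of cells that use the restricted isoforms were set beside them. Of 8 pericyte genes, 5 were higher and 3 lower, their mean level ranging from 7.20 to 7.54 in KO and from 6.98 to 7.54 in WT hosts. Kcnj8 differed by 0.45 (SE 0.19) and Rgs5 by -0.15. Of 15 skeletal muscle genes, 11 were higher and 4 lower, their mean level ranging from 5.66 to 6.10 and from 5.63 to 5.88. The muscle creatine kinase Ckm differed by 0.03. All 7 brown fat genes measured were higher, by a median of 0.16, while Ucp1, their defining marker, averaged 4.29 and 4.25, below the lower quartile of every array. The mean deviation of the brown fat genes was 0.36 and 0.43 in KO hosts 2 and 3 and below 0 in the other KO tumours, and without these 2 tumours 2 of 7 were higher. Their mean level per tumour ran from 5.14 to 5.96. All probe sets with a mean under 6 averaged 0.23 and 0.34 in KO hosts 2 and 3 and likewise lay below 0 in the other KO tumours. The muscle genes averaged 0.19 and 0.31 in KO hosts 2 and 3. Without KO hosts 2 and 3, 4 of the 15 muscle genes were higher (median -0.06), against 45.5% of all probe sets. The part of hypoxia-linked or pericyte genes in the difference of Ndufa4l2 was not tested.

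Markers of blood cells and stroma were compared in the same way. All 8 neutrophil genes were higher in KO hosts, by a median of 0.44, and 4 passed an unadjusted p under 0.05, though none the adjusted threshold. Of all probe sets 57.2% were higher, and 1.28% were higher at an unadjusted p under 0.05. The mean level of these neutrophil genes was 6.53 in KO host 2 and 6.47 in KO host 3, above the WT range of 5.46 to 5.96. Their mean deviation there was 0.63 and 0.57, beside 0.23 and 0.34 for all 12438 probe sets with a mean under 6. Of 9 macrophage genes 7 were higher (median 0.13), of 8 fibroblast genes 4 (median -0.0097), of 8 endothelial genes 5 (median 0.08), of 7 lymphocyte genes 5 (median 0.02), of 10 epithelial genes 9 (median 0.07) and of 12 gland secretion genes 9 (median 0.12). Epithelial genes averaged deviations of 0.14 and 0.35 and gland secretion genes 0.24 and 0.39 in KO hosts 2 and 3. All probe sets with a mean under 6 averaged 0.23 and 0.34 there. The mean level per tumour ran from 5.45 to 5.98 for epithelial genes. For gland secretion genes it ran from 3.98 to 4.63, below the lower quartile of every array. Without these 2 tumours, 3 of 10 epithelial genes (median -0.08), 7 of 12 gland secretion genes (median 0.0061), 6 of 8 neutrophil genes (median 0.20) and 9 of 9 macrophage genes (median 0.27) were higher. Of all probe sets 45.5% were then higher. The part of these cells in the levels of the subunit genes was not tested.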

How the data were processed

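RNA of 12 tumours was isolated with TRIzol and, per the labels, amplified (Ovation Pico WTA), labelled with biotin and hybridised. The authors deposited 1 log2 intensity for each probe set and array. RMA, which corrects background, normalizes and summarises probes, is named per the submitters' processing notes, with no version. Chip type and genome build are not given in the sources used here. Of 34760 rows, 6568 without a gene were taken as controls by their identifiers, and 28192 were tested, of which 21640 carry 1 gene symbol in the platform annotation, 1321 several and 5231 none. No counting depth exists for arrays, so precision depends on their number.

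The test was limma's moderated fit (version 3.58.1, R 4.3.3) of KO against WT hosts without covariates. It was two-sided, with p-values adjusted by Benjamini-Hochberg over all tested probe sets and called under 0.05. The labels name separate mice, and p-values measure the spread between these tumours. The script was tested on simulated data. Isoform ratios were tested by exact permutation (scipy 1.17.1). Plots were drawn with matplotlib 3.10.9. Named members were catalytic or defining subunits, paralogues, the 3 with the smallest p in each complex, and the 3 with the largest and smallest SD. The members and all lists were chosen with earlier results of these data known. Members named for their level in a single tumour or for a promoter motif were chosen after their values were seen, and the NRF1 and YY1 cores were shortened after longer forms had been searched. Alternatives were other scalings, array weights, filters, probe set choices, a block, and tumours left out.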

Additional observations from a re-analysis of the deposited data

Results flagged for a closer look

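In groups of 6 tumours, the distance of the highest or lowest tumour from its neighbour was compared with the range of the group for the named members, the complexes and the isoform ratios. In 15 of 118 groups 1 tumour stood far from the rest, where chance gives about 1 in 20 for independent values. Neither members nor complexes are independent of each other, and some members were named for a small p or a large SD. KO host 3 was the far tumour in 10 of these 15 groups. Over all probe sets too, KO host 3 was highest, and also lowest, more often than any other tumour. The share of such groups over all probe sets was not computed. Whether 15 of 118 exceeds the rate on these arrays was therefore not tested.

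KO host 3 was low in Atp5c1 (9.77, next 10.41), Cox6b1 (9.54, next 10.35), Sdhb (7.10, next 7.46), Uqcrc1 (7.10, next 7.43) and Uqcrh (8.95, next 10.04). It was low in the mean deviation of complex I (-0.29, next 0.04), complex III (-0.38, next 0.08) and complex V (-0.39, next 0.02). It was high in Cox8b (5.95, next 5.43) and in the log2 ratio of Cox6b2 to Cox6b1 (-3.27, next -4.44).

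KO host 2 was high in Cox5b (10.11, next 9.95) and Ndufb6 (8.74, next 8.06). KO host 5 was high in Sdhc (8.51, next 8.20). WT host 1 was high in Cox8b (5.88, next 5.51), and WT host 5 was low in Ndufa11 (8.07, next 8.15).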

How the results depend on the processing

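No member was called under any of 24 alternatives, where the lowest adjusted p was 0.638. The fit with the mouse number as a replicate block called 0 members too. Tumours with the same mouse number did not all deviate together (correlations of 0.14, 0.37, -0.55, 0.37, -0.54 and 0.34). No correlations of differently numbered tumours were set beside these, so whether the numbers pair the tumours was not settled. Members higher at an unadjusted p under 0.05 numbered 2 with quantile normalization (Ndufa4l2 and Ndufs5), array weights (Ndufv3 and Uqcrc1) and the interquartile range as a covariate (Ndufa4l2 and Uqcrc1). Members lower numbered 1 (Atp5md) with array weights, without KO hosts 2 and 3, and without these and WT hosts 2 and 5 (0 otherwise, except without KO host 2). With 1 tumour left out, the higher count ran from 0 (without KO host 2 or WT host 4) to 3 (without WT host 3) and the lower from 0 to 1. Over all probe sets the share under 0.05, in either direction, was 3.48% with quantile normalization, 6.52% with array weights and 6.85% with the covariate. It was 7.72% without KO hosts 2 and 3, 5.09% without these and WT hosts 2 and 5, and 1.97% without KO host 2. Without WT host 3 it was 1.84% and without WT host 4 1.79%, beside 2.39% in the main fit. Mean deviations moved with scaling. A common median gave -0.46 for complex I, -0.54 for complex III and -0.16 for complex IV of KO host 3, and 0.13 for complex IV of KO host 2. Quantile normalization gave 0.34 and -0.073 for complex I of KO hosts 2 and 3, 0.27 and -0.13 for complex III, and -0.11 for complex V of KO host 3. The filter on dim probe sets kept 75 members and gave -0.13 for complex IV of KO host 3. Of 46 named members 33 turned sign at least once and 13 did not, and 5 of 8 isoform ratios turned. The cause was not tested. The number of arrays limits what could be seen, and dim isoforms such as Cox7b2 have no measured signal over background here.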
